A study of Mus musculus with 6 samples.

Results

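Cytosolic ribosomal protein genes were examined in germinal center (GC) B cells that had or lacked the receptor for IL-21. They were chosen by name, as mouse symbols that start with Rpl or Rps and a number, together with Rplp0, Rplp1, Rplp2 and Rpsa. S6 kinase genes (Rps6k) and symbols with -ps, which mark pseudogenes, were left out. The rule found 91 of the 27179 genes in the count table, and no measured value entered it. Of the 91 genes, 77 encode the canonical proteins of the cytosolic ribosome, 46 of the large and 31 of the small subunit. A further 8 are paralogs of these, 5 are retrogenes or gene-like copies, and the last, Rps19bp1, matches the rule by its name but encodes a protein that binds Rps19 and not a ribosomal protein.

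The 6 RNA-seq libraries came from spleens of C57BL/6 mice, from which IgG1+ GC B cells that bound NP had been sorted 7, 10 and 14 days after immunization with NP-KLH in alum, a T cell-dependent antigen. Each day had 1 library of WT and 1 of Il21r-/-. Per the study's methods, the mice were irradiated recipients whose blood cells had been rebuilt from bone marrow of WT or Il21r-/- donors. The IL-21 receptor was therefore absent from all blood cells of Il21r-/- donor origin, T cells included, and not from B cells alone, and it was present in the tissues of the recipient and in any blood cells that it kept. All 6 groups were immunized, and no library came from unimmunized mice. The sources used here do not agree on how many mice entered a library, so the p-values measure the spread between libraries, which may be technical in part.

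A ribosome is built from ribosomal RNA and one copy of most ribosomal proteins, so that the proteins are needed in equal amounts and their mRNAs are among the most abundant of a growing cell. These mRNAs carry a terminal oligopyrimidine (TOP) tract at their 5′ end, a C followed by a run of pyrimidines, through which mTORC1 and the RNA-binding protein Larp1 control their translation. GC B cells grow and divide rapidly, and their return to division in the light zone is known to involve Myc and mTORC1, which raise ribosome production.

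The starts of these genes were examined for pyrimidine runs. The RefSeq promoter table (GRCm38.p6) held 69 of the 91 genes. In the 30 bases from 10 before to 20 after the annotated start, 26 of the 69 (37.7%) had a run of 8 or more pyrimidines, against 13.0% of all 27025 genes with a promoter. The windows below show the range among members described later, with the longest pyrimidine run of each in capitals, and with the ubiquitous gene Rps6, whose protein is phosphorylated downstream of mTORC1, among them. Rps27rt, Rps13 and the paralog Rpl7l1 are printed as members whose longest run was shorter than 8.
Rpl27a (chr7:109519185-109519214, plus strand): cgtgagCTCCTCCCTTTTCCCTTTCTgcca
Rpl13a (chr7:45128726-45128755, minus strand): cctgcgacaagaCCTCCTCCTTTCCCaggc
Rpl28 (chr7:4792955-4792984, plus strand): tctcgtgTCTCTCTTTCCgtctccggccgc
Rps18 (chr17:33955646-33955675, minus strand): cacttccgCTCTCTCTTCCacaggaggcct
Rps6 (chr4:86857348-86857377, minus strand): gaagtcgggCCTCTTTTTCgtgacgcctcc
Rplp2 (chr7:141447641-141447670, plus strand): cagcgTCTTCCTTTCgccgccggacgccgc
Rps27 (chr3:90213629-90213658, minus strand): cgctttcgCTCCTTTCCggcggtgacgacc
Rps27rt (chr9:114982720-114982749, minus strand): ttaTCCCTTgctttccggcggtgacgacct
Rps13 (chr7:116334171-116334200, minus strand): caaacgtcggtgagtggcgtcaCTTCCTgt
Rpl7l1 (chr17:46782637-46782666, minus strand): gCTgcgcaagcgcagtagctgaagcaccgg
The run was 20 bases long in Rpl27a, 10 in Rps6 and 2 in Rpl7l1. Rps27rt, a retrogene of Rps27, carries the end of the Rps27 leader downstream of its annotated start. Because the window follows the annotated start, a tract that lies outside it was not counted.

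The letters CCGGAAG, the core that ETS factors such as GABP bind, were searched on both strands of the 300-base promoter, 250 bases before to 50 after the start. They were found in 26 of 69 members (37.7%) and in 9.93% of all promoters. The TATA box letters TATAAA were found in 8 of 69 members (11.6%) and in 15.7% of all promoters. These matches describe the letters in the window only. The 26 members with a pyrimidine run had a median log2 fold change between genotypes of -0.27 and the 41 tested members with a promoter and no run -0.26, on the scale explained next.

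Of the 91 genes, 89 passed the low-count filter and were tested among 11005 genes. The testis gene Rpl10l had 0 counts in every library, which allows at most 0.140 CPM (a gene's counts scaled to a common library size) in the shallowest one, WT day 14, at a limit of 3 counts for counting error only. The muscle gene Rpl3l had 1 count, in WT on day 14, and 0 in the other libraries. CPM values here were scaled with TMM factors, levels per length are in RPKM, and log2 fold changes are WT minus Il21r-/-, so that negative values mean a higher level in Il21r-/-. Library totals were 21353438 to 27435124 counts.

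The targeted gene went with the labels. Il21r was at 346, 263 and 247 CPM in WT on days 7, 10 and 14 and at 106, 128 and 113 CPM in Il21r-/-, a log2 fold change of 1.29 (SE 0.13, adjusted p = 0.00137, edgeR's quasi-likelihood test). The summed level of 11 GC B cell markers was 9878 to 11518 CPM in WT and 10531 to 11955 CPM in Il21r-/-, and none of the 11 passed the test. With day as a block, which compares the 2 libraries of each day, 7 of the 11 were called, 3 of them (Bcl6, Mef2b and Rgs13) higher in WT and 4 (among them Fas and Cd79b) in the opposite direction. The 8 T cell markers summed to 1.31 to 2.34 CPM over the 6 libraries, the 8 myeloid markers to 2.60 to 8.48 CPM and the 5 erythroid markers to 4.91 to 31.9 CPM. The 6 plasma cell markers summed to 3695 to 4065 CPM in WT and 4055 to 5002 CPM in Il21r-/-. Of these 6, Prdm1 was called higher in WT, with a log2 fold change of 1.64 (adjusted p = 0.0216, edgeR), and Xbp1 higher in Il21r-/-, with -0.39 (adjusted p = 0.0396, edgeR). With the block, Irf4, Jchain and Mzb1 were called higher in Il21r-/- too. The 8 markers of B cells outside the GC summed to 307 to 741 CPM in WT and 695 to 1140 CPM in Il21r-/-. Their sum was higher in Il21r-/- on each day, and 5 of the 8 passed the test in that direction (among them Fcer2a, Ccr7, Klf2 and Gpr183). The other 3, Cr2, Cd38 and Ighd, were not called. They were higher in WT on day 7 and higher in Il21r-/- on days 10 and 14. None of the markers was at 0 in all libraries. The part of these markers in the results that follow was not tested. In bulk libraries, fewer cells of one kind and less RNA per cell cannot be told apart.

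As a group, ribosomal protein genes took a larger share of the counts in Il21r-/- than in WT on every day. On day 7 they held 7.38% of counts in WT and 8.32% in Il21r-/-. The shares were 7.08% and 7.70% on day 10, and 8.85% and 10.7% on day 14. The groups overlapped, since the day 14 WT library lay above the day 7 and day 10 libraries of Il21r-/-, while the Il21r-/- day 14 library was the highest of all. The mean share was 7.77% ± 0.945 in WT and 8.91% ± 1.60 in Il21r-/- (SD, n = 3), a difference of 1.14 percentage points, and the ratio of Il21r-/- to WT was 1.13, 1.09 and 1.21 on days 7, 10 and 14. Without the Il21r-/- day 14 library the difference was 0.237 percentage points, but this sets days 7 and 10 of Il21r-/- against all 3 days of WT. Within a day, the difference was 0.938 percentage points on day 7, 0.613 on day 10 and 1.87 on day 14.

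**Figure D1:**
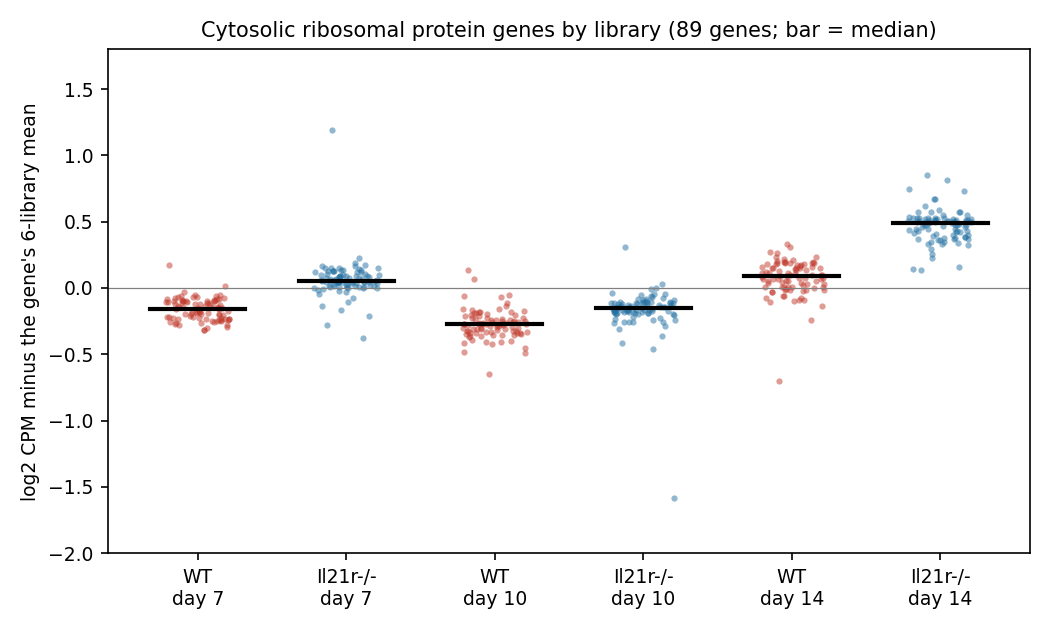
Each point is 1 of the 89 tested genes in 1 library, and the y axis gives its log2 CPM minus its mean over the 6 libraries (red WT, blue Il21r-/-, bar median). The medians were -0.16, -0.27 and 0.09 in WT and 0.05, -0.15 and 0.49 in Il21r-/- on days 7, 10 and 14, so that the genes move together from library to library.

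The plot of each gene's deviation by library shows that the genes moved together. The median deviation from a gene's own mean was -0.16, -0.27 and 0.09 on the log2 scale in WT on days 7, 10 and 14, and 0.05, -0.15 and 0.49 in Il21r-/-. Day 10 was the lowest day and day 14 the highest in both genotypes. In WT, 80 of the 89 genes were lowest on day 10 and 83 highest on day 14, and in Il21r-/- 84 were lowest on day 10 and 88 highest on day 14.

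The genotype comparison over the 3 days asks whether the level differed between WT and Il21r-/- once a linear trend with day is taken into account. Of the 89 genes, 87 were higher in Il21r-/- and 2 in WT, with a median log2 fold change of -0.27 and quartiles of -0.31 and -0.21. Over all 11005 genes the median was -0.01, and 51.8% were higher in Il21r-/-. All 77 canonical genes were higher in Il21r-/-, with a median of -0.25 for the 46 of the large subunit and -0.29 for the 31 of the small subunit. The median gene was 1.21-fold higher in Il21r-/-.

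None of the 89 genes passed an adjusted p of 0.05 in this fit by edgeR's quasi-likelihood test with Benjamini-Hochberg adjustment, where the calls over all genes made up 1.4% in favour of WT and 4.52% in favour of Il21r-/-. Of the 89, 11 (12.4%) had an unadjusted p under 0.05, against 21.4% of all genes, and the lowest adjusted p was 0.123, for Rps13. DESeq2 called 1 as higher in Il21r-/-, against 5.75% of all genes. The day 10 libraries lay below those of day 7, so a straight line over days leaves that dip in the error. With day as a block, the calls rose to 54 of the 89 genes, each with its higher level in Il21r-/-, against 9.33% of all genes in favour of WT and 13.6% in favour of Il21r-/-. The 54 were 27 of the 31 canonical small subunit genes, 24 of the 46 of the large subunit and 3 of the 5 retrogenes and copies. The median under the block was -0.26. Without day 14 the blocked fit called 4 genes, without day 7 it called 39 and without day 10 it called 54, with medians of -0.18, -0.26 and -0.31. The share of all genes called in that direction was 6.22%, 13.4% and 9.1% in these fits. Of single libraries left out of the linear fit, the day 10 library of Il21r-/- raised the called genes to 64, all higher in Il21r-/-, against 11.0% of all genes. That of WT day 7 raised them to 1, against 3.5% of all genes. Without the day 14 library of Il21r-/- the median was -0.13.

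**Figure D2:**
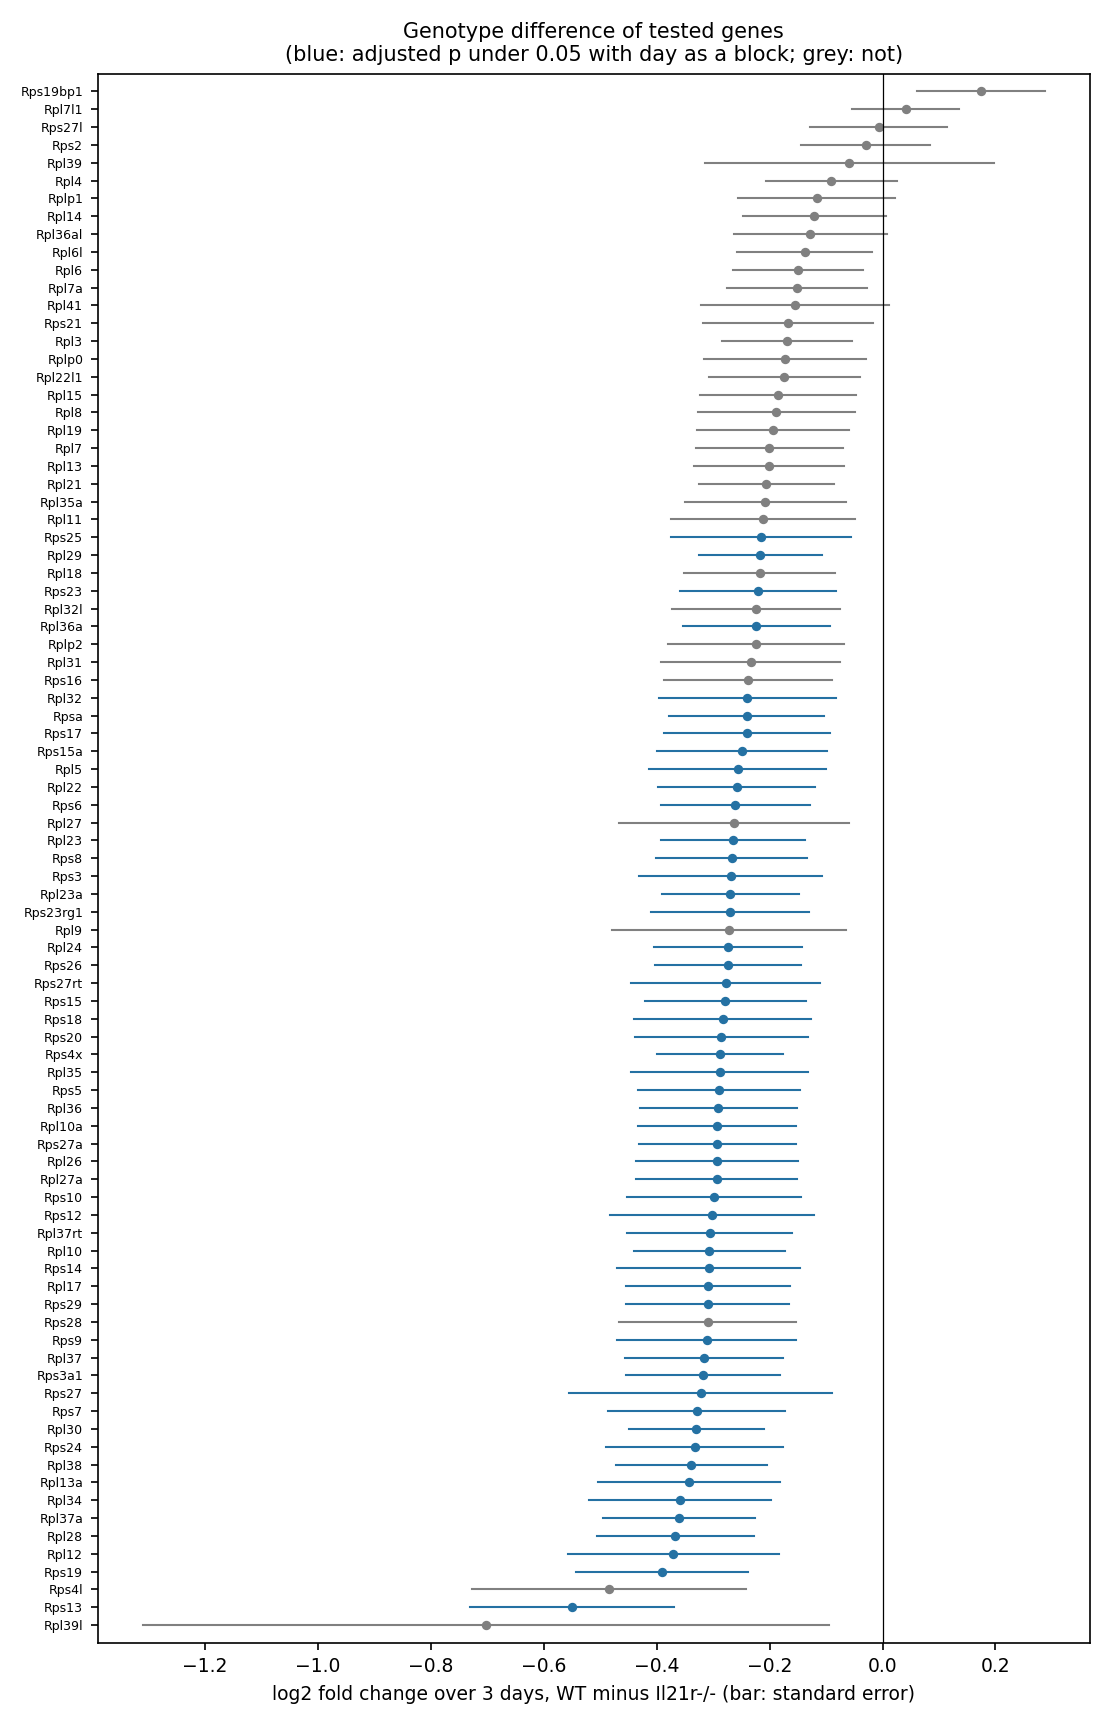
Log2 fold change of each tested gene over 3 days (WT minus Il21r-/-, x axis, point) with its standard error (bar), in rank order; blue marks genes with an adjusted p under 0.05 with day as a block, and 2 tested genes are not drawn. All drawn genes but Rpl7l1 and Rps19bp1 lie below 0, and the standard errors are wide for Rpl39l and Rpl39.

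The largest differences were found in genes of low counts or of shared sequence. Rps13, a protein of the small subunit, was at 36.3, 30.3 and 39.9 CPM in WT on days 7, 10 and 14 and at 48.0, 39.2 and 71.4 CPM in Il21r-/-. Il21r-/- was higher on each day, but its day 10 library lay below WT day 14, so that the groups overlapped. The log2 fold change was -0.55 (SE 0.18), and with the block it was -0.54 (SE 0.10, adjusted p = 0.000209, edgeR), the lowest adjusted p of the group. Rpl39l, a paralog of Rpl39 known from testis, was near the limit of detection, at 1.10, 1.02 and 0.562 CPM in WT and 2.31, 0.267 and 1.81 CPM in Il21r-/-. Its log2 fold change of -0.70 (SE 0.61) had no constant direction over days. Rps4l, annotated as a transcribed pseudogene, was at 9.01, 5.98 and 9.22 CPM in WT and 7.24, 11.7 and 16.6 CPM in Il21r-/-, a log2 fold change of -0.48 (SE 0.24). It was lower in Il21r-/- on day 7 and higher on days 10 and 14.

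Rps19, a small subunit protein mutated in Diamond-Blackfan anaemia, followed Rps13 among the blocked tests. It was at 516, 464 and 652 CPM in WT and 673, 561 and 915 CPM in Il21r-/-, with a blocked log2 fold change of -0.38 (SE 0.07, adjusted p = 0.00028, edgeR). Il21r-/- was higher on each day, while WT day 14 lay above Il21r-/- day 10.

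At the other end of the order stood the 2 members with positive values and, next to them, 2 with values near 0. Rps19bp1 was at 23.9, 27.2 and 28.1 CPM in WT and 21.3, 21.7 and 27.3 CPM in Il21r-/-, a log2 fold change of 0.17 (SE 0.11). It was higher in WT on each day, the one member of which this held. Rpl7l1 was at 192, 198 and 236 CPM in WT and 194, 188 and 225 CPM in Il21r-/-, a log2 fold change of 0.04 (SE 0.09). Rps27l, a paralog of Rps27 induced by p53, was at 144, 155 and 211 CPM in WT and 156, 140 and 215 CPM in Il21r-/-, a log2 fold change of -0.01 (SE 0.12) whose sign changed with the scaling and with the block. Among canonical proteins Rps2 had the smallest value, -0.03 (SE 0.11), with 1340, 1307 and 1419 CPM in WT and 1246, 1296 and 1636 CPM in Il21r-/-. The libraries of the 2 genotypes were intermixed in all 4 genes.

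In 76 of the 89 genes Il21r-/- was higher on each of the 3 days, which held for 27.9% of all genes. In 6 genes all 3 libraries of Il21r-/- lay above all 3 of WT (among them Rpl30, Rpl28, Rps26, Rps4x and Rpl29), against 10.0% of all genes. Rpl30, which was at 386, 367 and 419 CPM in WT and 451, 427 and 608 CPM in Il21r-/-, is an example. Its log2 fold change was -0.33 (SE 0.12), and the adjusted p was 0.159 in the linear fit and 0.00232 with the block (edgeR). Rpl28, whose start is printed above, was at 359, 309 and 350 CPM in WT and 403, 372 and 550 CPM in Il21r-/-, with a blocked log2 fold change of -0.36 (SE 0.08, adjusted p = 0.00276, edgeR).

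On single days, the order of the differences depended on the tool. The median log2 fold change over the 89 genes by edgeR was -0.24 on day 7, -0.13 on day 10 and -0.37 on day 14, beside 0.00, -0.02 and -0.01 over all genes. The DESeq2 fit kept a linear trend with day, so it set each WT library against a straight line through the 3 Il21r-/- libraries. Its medians were -0.085, -0.395 and -0.270 on these days. In the edgeR fit, higher in Il21r-/- were 85, 77 and 87 of the 89 genes on days 7, 10 and 14. None passed an adjusted p of 0.05 on any day by edgeR's likelihood ratio test, where 1.07%, 3.1% and 3.28% of all genes were called on days 7, 10 and 14. The genes with an unadjusted p under 0.05 numbered 0, 1 and 13, against 5.51%, 10.8% and 12.1% of all genes, and the 13 of day 14 were 14.6% of the 89. The lowest adjusted p on day 14 was 0.189, for Rps28. With dispersions from the fit with day as a block, 21 genes were called on day 14 and all were higher in Il21r-/-, against 6.08% of all genes, and the adjusted p of Rps28 was 0.0355 (edgeR).

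**Figure D3:**
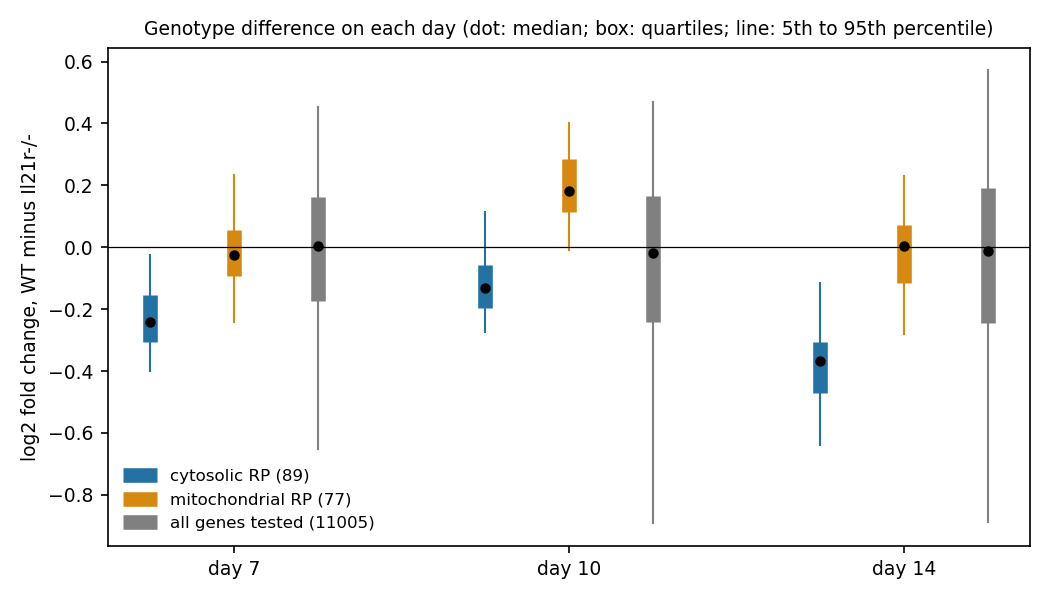
Genotype difference on each day (log2 fold change, WT minus Il21r-/-) for cytosolic ribosomal proteins, mitochondrial ribosomal proteins and all genes tested (dot median, box quartiles, line 5th to 95th percentile). Cytosolic ribosomal protein genes have medians of -0.24, -0.13 and -0.37, and mitochondrial ones of -0.03, 0.18 and 0.00.

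Levels were higher on day 14 than on day 7 in both genotypes, by a median of 0.23 log2 units over the 89 genes in WT and 0.41 in Il21r-/-. The linear day effect had a median of 0.050 log2 units per day and was positive in 88 of 89 genes, the exception being Rpl39l. None passed the adjusted threshold by edgeR's quasi-likelihood test, with 1.07% of all genes called rising and 3.36% falling, while 31 of the 89 (34.8%) had an unadjusted p under 0.05, against 23.5% of all genes. The lowest adjusted p was 0.0708, for Rpl14, which was at 642, 664 and 846 CPM in WT and 661, 655 and 1058 CPM in Il21r-/-. Its slope was 0.080 log2 units per day (SE 0.022). Rps27l, with a slope of 0.076 (SE 0.021), had an adjusted p of 0.0723. With day as a factor the adjusted p was 9.6e-05 for Rpl14 and 0.000293 for Rps27l (edgeR). DESeq2 called 3 genes rising, against 2.58% of all genes. When day was a factor, 63 of the 89 genes were called higher on day 14 than on day 7 and none lower, against 12.6% of all genes called higher. Without the Il21r-/- day 10 library the linear fit called 39, against 8.83% of all genes called rising, and without the Il21r-/- day 14 library its median was 0.020. Day and any other difference between the library pairs of the 3 days cannot be told apart.

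No difference in slope between genotypes passed the test. The difference in slope, WT minus Il21r-/-, had a median of -0.021 log2 units per day and was negative in 72 of 89 genes. None of the 89 genes passed edgeR's quasi-likelihood test and none had an unadjusted p under 0.05, with 0.0% of all genes called. DESeq2 also called none. The median took the opposite sign, 0.033 and 0.116, without WT day 7 and without Il21r-/- day 14.

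The paralogs, which encode alternative forms of single ribosomal proteins, did not move as one group. Their parents all had negative log2 fold changes over 3 days, although that of Rpl39, -0.06 (SE 0.26), became positive when either day 14 library was left out. Rpl22l1, which was at 188, 178 and 252 CPM in WT and 218, 189 and 291 CPM in Il21r-/-, had a log2 fold change of -0.17 (SE 0.13), beside -0.26 (SE 0.14) for its parent Rpl22. Rpl36al had -0.13 (SE 0.14) and its parent Rpl36a -0.22 (SE 0.13). Rpl7l1 had 0.04 beside -0.20 (SE 0.13) for Rpl7, and Rps27l had -0.01 beside -0.32 (SE 0.23) for Rps27. Of the parents, Rpl22, Rpl36a, Rps4x, Rpl10 and Rps27 were called with the block and Rpl3, Rpl7 and Rpl39 were not. None of the 6 tested paralogs was called. Among all genes, the block put 13.6% past the threshold in favour of Il21r-/- and 9.33% in favour of WT. At these shares, the absence of calls among 6 genes does not set the paralogs apart from genes in general. The differences between a paralog and its parent were not tested.

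The P stalk of the large subunit, which recruits translation factors, is formed by Rplp0, Rplp1 and Rplp2. Rplp0, at 4173, 3954 and 4870 CPM in WT and 4865, 4078 and 5723 CPM in Il21r-/-, had a log2 fold change of -0.17 (SE 0.14). Rplp1 had -0.12 (SE 0.14) and Rplp2 -0.22 (SE 0.15). None of the 3 was called with the block, although all were higher in Il21r-/- on each day. Rpl5 and Rpl11 bind Mdm2 when they are free of the ribosome and so link ribosome assembly to p53. Rpl5 was at 69.6, 70.2 and 104 CPM in WT and 89.7, 72.3 and 129 CPM in Il21r-/-, with a log2 fold change of -0.26 (SE 0.16, adjusted p = 0.391, edgeR). With the block it was called, at -0.24 (SE 0.09, adjusted p = 0.0391, edgeR). Rpl11 was at 17.6, 16.8 and 19.2 CPM in WT and 21.1, 15.9 and 25.2 CPM in Il21r-/-, with -0.21 (SE 0.16), and was not called with the block (adjusted p = 0.236, edgeR).

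Levels per length differed 5049-fold between the highest and the lowest tested gene, with a median of 807 RPKM. Among the highest were Rps27rt at 7384 ± 1548 RPKM (SD, n = 6 libraries), Rplp1 at 5700 ± 910, Rpl32 at 4916 ± 1083 and Rps15 at 4473 ± 874. The lowest were Rpl39l at 1.46 ± 0.950 RPKM, Rpl39 at 3.74 ± 0.863, Rps4l at 10.6 ± 4.02, Rpl31 at 21.5 ± 4.09 and Rps19bp1 at 30.0 ± 3.62. In the order of levels, the ranges of neighbouring genes over the 6 libraries did not overlap in 4 of 88 pairs. The genes moved together between libraries, so an overlap of ranges cannot show whether neighbours kept their order within each library.

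These levels are those of the counting, and much of the sequence of the group is shared with other genes. The mouse genome holds many processed copies of ribosomal protein mRNAs, and a read that fits several places can be given to any of them or dropped. For each gene, the share of 100-base windows of a transcript that occur unchanged in another gene of the annotation was computed. It was 98.4% for Rps27, 91.6% for Rpl10, 91.1% for Rpl5, 81.6% for Rps12, 77.6% for Rps13 and 63.2% for Rpl31, and 0% for Rps3, Rpl32 and Rpl22. Rps27 itself was at 67.7 RPKM and its retrogene Rps27rt at 7384 RPKM, and 98.4% of the windows of Rps27 occur in Rps27rt. The level of Rps27 and Rps27rt as separate genes is therefore uncertain. Rpl39 lay low too, and shared 1.75% of its 100-base windows and 16.5% of its 50-base windows. Only windows unchanged in another gene were counted, so copies with differences were missed. Whether reads of Rpl39 were given to such copies was not tested.

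**Figure D4:**
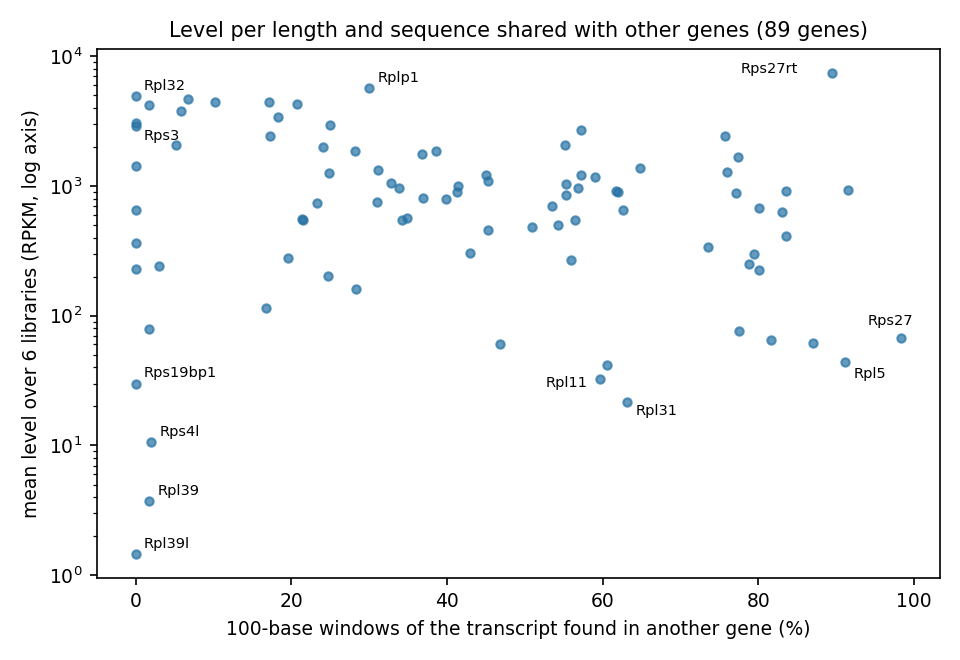
Mean level over 6 libraries (RPKM, log axis) of each tested gene against the percentage of its 100-base windows that occur in another gene. Rps27, Rpl5, Rpl31 and Rpl11 lie low at 59.7 to 98.4% shared, Rps27rt lies highest at 89.5%, and Rpl39 and Rpl39l lie lowest with 1.75% and 0% shared.

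The median genotype difference was of like size in groups of genes set by their percentage of shared windows. The median log2 fold change over 3 days was -0.27 in the 38 genes with 50% or more of windows shared, -0.27 in the 51 tested genes with less, and -0.24 in the 17 tested genes with under 10%. Il21r lies on chromosome 7, as do 14 of the members. Their median was -0.29, beside -0.26 for the 75 tested genes on other chromosomes.

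For 2 members on chromosome 7 the pseudogenes named after them were examined too, a step chosen after the values had been seen. How reads were divided between a gene and its pseudogenes was not tested. Rps13 (chr7:116331507-116334190) had far fewer counts than its pseudogene Rps13-ps4 (chr8:119602130-119602645), which was at 470, 424 and 566 CPM in WT and 540, 494 and 785 CPM in Il21r-/-. The sum of the pair gave a mean log2 ratio of WT to Il21r-/- over the 3 days of -0.32, beside -0.54 for Rps13 alone. Rps15a (chr7:118104374-118116147) was at 1071, 958 and 1348 CPM in WT and 1212, 1088 and 1746 CPM in Il21r-/-. Its pseudogene Rps15a-ps8 (chr4:53791031-53791468) had 10, 7 and 3 counts in WT and 5487, 1800 and 2162 counts in Il21r-/-. In contrast, Rps15a-ps4 (chr4:132219893-132220589) was at 148, 125 and 145 CPM in WT and 55.6, 115 and 181 CPM in Il21r-/-. Rps15a together with its 6 pseudogenes gave a mean log2 ratio of -0.28, and Rps15a alone -0.24. Over the 15 members with such pseudogenes in the table, the mean log2 ratio of the sum over the 3 days was negative in all 15. Its median was -0.29, beside -0.28 for the members alone. The sum of Rps4l was higher in WT on day 7, with a log2 ratio of 0.316. The pseudogene of Rplp2 was at 0 CPM in every library, so that sum is the member alone.

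Comparison with related genes showed where the pattern was found. The mitochondrial ribosome has its own set of nuclear genes (Mrpl and Mrps), whose mRNAs are not known as TOP mRNAs. Of its 78 genes 77 were tested, and their median log2 fold change was 0.04, with 50 of 77 higher in WT. None was called over 3 days by edgeR, and 3 had an unadjusted p under 0.05, against 21.4% of all genes. The block called 5, with 4 higher in WT and 1 in Il21r-/-, against 9.33% and 13.6% of all genes. On day 10, 71 of the 77 were higher in WT, with a median of 0.18, on the day when the cytosolic genes had a median of -0.13. The median transcript length was 1055 bases for the mitochondrial and 703 bases for the cytosolic genes. The linear day effect was positive in 72 of the 77. The difference between the cytosolic and the mitochondrial set was not tested.

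Among partner genes of the ribosome, those made and regulated with it came closest. Fau encodes a ribosomal protein fused to a ubiquitin-like protein and falls outside the naming rule. It was at 661, 569 and 813 CPM in WT and 833, 671 and 1071 CPM in Il21r-/-, with a blocked log2 fold change of -0.32 (SE 0.07, adjusted p = 0.00158, edgeR). Of 19 other genes known for TOP mRNAs, such as elongation factors, 14 were higher in Il21r-/-, with a median of -0.11. None was called in the linear fit. With the block, Rack1, Naca, Eif3e, Eif3f and Eif3h were called higher in Il21r-/- and Nap1l1 higher in WT. The shares of all genes called so were 13.6% and 9.33%. The elongation factors Eef1a1, with -0.12 (SE 0.15), and Eef2, with -0.09 (SE 0.12), were not called in either fit.

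The genes that control or assemble ribosomes did not follow the ribosomal proteins in direction. Of 13 genes of mTORC1, Larp1 and cap binding, 10 were higher in WT, with a median of 0.08. Larp1 had a log2 fold change of 0.13 (SE 0.22). The initiation factor Eif4g1, 1 of the 13, was called higher in WT with the block, against 9.33% of all genes. Of 17 dedicated chaperones and late assembly factors, 13 were higher in WT, with a median of 0.12. With the block, Grwd1, Heatr3 and Ltv1 were called higher in WT, against 9.33% of all genes. Grwd1, the chaperone of Rpl3, had a blocked log2 fold change of 0.40 (SE 0.10, adjusted p = 0.00354, edgeR). None of the 17 was called in the linear fit, where the lowest adjusted p was 0.0949. The 4 genes of p53 surveillance had a median of 0.03, with 0.07 (SE 0.11) for Mdm2 and 0.02 (SE 0.24) for the p53 target Cdkn1a. Cdkn1a rose with time, by 0.209 log2 units per day (adjusted p = 0.0296, edgeR), against 1.07% of all genes called rising. Its level was low, at 1.28, 1.34 and 2.86 CPM in WT and 0.916, 1.60 and 3.09 CPM in Il21r-/- on days 7, 10 and 14.

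**Figure D5:**
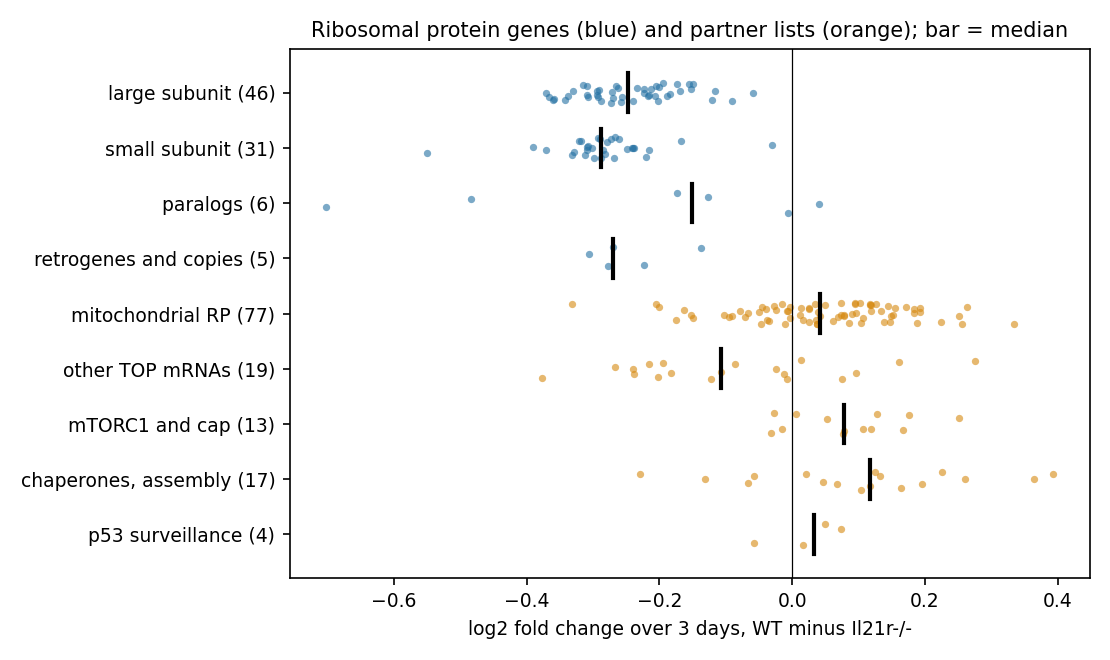
Log2 fold change over 3 days (WT minus Il21r-/-, x axis) of each tested gene in the groups of ribosomal protein genes (blue) and in the comparison lists (orange), with the median as a bar and the number of genes in parentheses. The large and small subunit genes have medians of -0.25 and -0.29, mitochondrial ribosomal proteins 0.04, mTORC1 and cap-binding genes 0.08 and assembly factors 0.12.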

How the data were processed

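Per the authors' methods, single-end reads were aligned to mm10 with Rsubread, counted on genes with featureCounts and pooled over technical replicates. The deposited values are whole-number counts per Entrez gene, without normalization. Strand and multi-mapping settings are not given in the sources used here. Genotype and day came from the labels. In edgeR 4.0.16 (R 4.3.3), TMM factors were computed after removal of Ig variable genes, Xist, genes on the Y chromosome and genes with aveLogCPM under 0. Models held genotype and linear day (3 residual degrees of freedom) for the quasi-likelihood tests, and a mean per day with dispersions of that model for the likelihood ratio tests. P-values were adjusted over 11005 genes by the Benjamini-Hochberg method, with a threshold of 0.05. Standard errors come from the fitted model. DESeq2 1.42.0 was an alternative, as were other scalings, filters and left-out libraries.

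The replicate number follows the day, so the 2 libraries of a day share it. Their deviations from the genotype means correlated across genes with r = 0.640, 0.413 and 0.645 on days 7, 10 and 14. Day was not removed from these deviations, so the values cannot show a pairing beyond day. The fit with day as a block is given beside many of the results it changes.

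RPKM used the deposited gene lengths. Symbols came from RefSeq for 25275 identifiers and from GENCODE for 18 more, and 1886 had none. Of 95 reference symbols of the rule, 4 without an identifier in the table were not analysed here. Shared windows were computed on GENCODE transcripts of GRCm38.p6, 1 per gene. The scripts were tested on simulated data. Members, gene lists and rules for named genes were chosen with earlier results of these data known: named are members past a threshold, those of the most extreme differences and levels, untested members, paralogs and parents, the P stalk, Rpl5, Rpl11, Il21r and set partner genes. Rps19, Rps2, Rpl30, Rpl28, Rps28, Rps15a, Rps3, Rps6 and the partner and marker genes called in either fit were named after their values were seen. Values of some genes that these rules would name are not reported here.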

Additional observations from a re-analysis of the deposited data

How the results depend on the processing

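The direction of the median over the 89 genes was the same under every scaling, filter, tool and left-out library tried for the genotype difference over 3 days and for the linear day effect. On single days it was the same under every scaling, filter and tool. There the block and a left-out library changed only the dispersions, so they could not move the median. The median over 3 days ranged from -0.381 to -0.127 with 1 library left out, and was -0.219 with total counts in place of TMM, -0.265 with TMM factors computed without the members and -0.262 with the replicate block (day as a factor). Genes called higher in Il21r-/- over 3 days were 54 with the replicate block, 1 with the DESeq2 Wald test and 0 to 64 with 1 library left out. The replicate block without 1 day, chosen after the data had been seen, called 39 without day 7, 54 without day 10 and 4 without day 14. On day 14 the replicate block called 21, and leaving out 1 library from the dispersions called 0 to 8. The DESeq2 Wald test, whose day-wise fit kept a linear day trend because a mean per day leaves no residual degree of freedom, gave medians of -0.085 on day 7 and -0.395 on day 10. Rising genes were 63 with day as a factor, 3 with all genes of any count, 3 with DESeq2 and 0 to 39 with 1 library left out, and the median slope was 0.0200 to 0.0683. The median difference in slope was -0.114 to 0.116 with 1 library left out and -0.0215 with the replicate block. The difference in the share of counts was 0.237 to 1.75 percentage points with 1 library left out, where the 2 genotypes no longer cover the same days. The cause of these shifts was not tested, except where a left-out library or day states it.

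Among 485 pairs of a named gene and a setting, 422 kept their direction and side of the threshold, 47 became significant, 0 lost significance and 16 changed sign. Rps27l changed sign to 0.0011 with the replicate block, 0.000214 with DESeq2 size factors, 0.0423 with total counts, 0.0024 with all genes of any count, 0.000193 with the DESeq2 Wald test, 0.0582 and 0.0179 with the replicate block without day 7 and day 14, and -0.115 to 0.110 with 1 library left out. Rpl39 gave 0.187 with the replicate block without day 14. With 1 library left out, the range was -0.209 to 0.192 for Rpl39, -1.22 to 0.052 for Rpl39l, -0.218 to 0.018 for Rplp1 and -0.0019 to 0.096 for Rpl7l1.

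Over all genes, calls over 3 days were 154 higher in WT and 497 in Il21r-/-, against 1027 and 1492 with the replicate block, 283 and 708 with all genes of any count, 318 and 633 with the DESeq2 Wald test, and 24 and 108 to 957 and 1208 with 1 library left out. Linear day calls were 118 rising and 370 falling, against 1388 and 1492 with day as a factor, 245 and 624 with any count, 284 and 586 with DESeq2, and 1 and 5 to 972 and 1205 with 1 library left out. Day-wise calls were 118, 341 and 361 on days 7, 10 and 14, and with the replicate block those in favour of WT and of Il21r-/- numbered 83 and 220, then 201 and 621, then 386 and 669. The DESeq2 Wald test gave 13 and 19, 26 and 106, and 20 and 74. Total counts moved the median of all genes to 0.035, by less than 0.1. With 1 library per genotype and day, the error of a single day rests on the scatter of all 6 libraries.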
